A study of Mus musculus with 11 samples.

Results

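Mitotic and cell cycle genes were described in the lungs of C57BL/6 mice. The set held 40 listed genes that act in S, G2 and M phase, and a member was kept where its mean over the 11 libraries was at least 1. This left 38 of the 40 members, among 16225 of the 23255 genes in the table. The excluded members were Ttk (mean 0.865) and Kif2c (0.941), and the lowest kept members were Nuf2 (1.36), Aurkb (1.38) and Birc5 (1.44). Total RNA was sequenced after removal of ribosomal RNA. There were 3 libraries of untreated control mice, 3 of mice given naphthalene, which is toxic to airway club cells, and 5 of mice treated after naphthalene with osimertinib, a drug that blocks EGF receptor signalling. All groups shared the strain and the tissue. Dose, time, age, sex and batch are not given in the labels, nor is it stated whether replicates were separate animals or pooled ones. The p-values therefore describe the spread between libraries, part of which may be technical.

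A dividing cell copies its DNA in S phase, prepares in G2 and separates the copies in M phase. The MCM helicase, the enzymes that make nucleotides and the clamp-associated factors work in S phase. Cyclin-dependent kinase 1 (Cdk1) with its A and B cyclins then drives entry into mitosis, motor and kinetochore proteins attach chromosomes to the spindle, and the anaphase-promoting complex with Cdc20 releases them by marking cyclin B and securin for destruction. Most cells of an adult lung are not dividing, and after injury epithelial, endothelial and immune cells can re-enter the cycle. In bulk RNA a lower value may mean fewer cycling cells or less RNA per cycling cell, and these cannot be told apart.

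Many genes of G2 and M phase share 2 promoter elements, the CHR (cell cycle genes homology region), which in quiescent cells is bound by the DREAM complex, and CCAAT boxes, bound by NF-Y. Genes of S phase more often carry E2F sites. Promoter sequences from RefSeq (GRCm38.p6, an earlier build than the GRCm39 named by the submitters) were matched by symbol for 36 of the 40 members, and Ccna2, Aurkb, Kif20a and Tpx2 had none. Windows ran from 250 bases before to 50 bases after the start site, and both strands were searched. The CHR letters TTTGAA were in 23 of 36 members (63.9%), against 20.2% of 27025 genes. They were in 22 of 29 G2 and M phase members (75.9%) and in 1 of 7 replication members (14.3%), Mcm2. The letters CCAAT were in 27 of 36 members (75%, against 41.1% of all genes). A CHR and a CCAAT box occurred together in 19 members (52.8%, against 7.97%), of which 18 were G2 and M phase genes. An E2F site, searched as the letters TTGGCGC and likewise with TTCCCGC and then TTGCCGC and lastly TTCGCGC, was in 11 members (30.6%, against 10.9%), 5 of 7 replication members and 6 of 29 G2 and M phase members. E2F and CCAAT matches can share letters, as in the Ccnb1 promoter. A match is a description of the letters, not a site shown to be bound.

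The upstream stretches below are of genes whose values are given by library further on. They are 5 G2 and M phase genes with both elements, and Mcm6, a replication gene with E2F letters and no CHR. Each is the 120 bases before the start site in GRCm38.p6, written 5′ to 3′ on the gene's strand, with matches to CHR, CCAAT or E2F letters, on either strand, in capitals. The stretches lie at chr10:69352913-69353032 (minus strand) for Cdk1, chr4:118437344-118437463 (minus) for Cdc20, chr2:164769809-164769928 (plus) for Ube2c, chr19:37376262-37376381 (plus) for Kif11, chr11:99024190-99024309 (minus) for Top2a and chr1:128359706-128359825 (minus) for Mcm6.
Cdk1: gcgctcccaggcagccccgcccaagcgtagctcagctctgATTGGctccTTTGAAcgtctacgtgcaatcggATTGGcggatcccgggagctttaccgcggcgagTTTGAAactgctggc
Cdc20: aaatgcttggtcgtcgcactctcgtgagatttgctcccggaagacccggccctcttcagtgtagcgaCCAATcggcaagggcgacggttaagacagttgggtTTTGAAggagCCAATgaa
Ube2c: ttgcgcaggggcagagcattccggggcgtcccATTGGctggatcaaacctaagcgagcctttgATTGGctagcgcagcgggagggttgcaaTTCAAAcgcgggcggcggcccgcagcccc
Kif11: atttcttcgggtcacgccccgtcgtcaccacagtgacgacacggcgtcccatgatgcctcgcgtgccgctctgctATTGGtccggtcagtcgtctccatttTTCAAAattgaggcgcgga
Top2a: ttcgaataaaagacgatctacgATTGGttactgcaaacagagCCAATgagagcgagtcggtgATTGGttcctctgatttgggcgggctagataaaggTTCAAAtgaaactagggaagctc
Mcm6: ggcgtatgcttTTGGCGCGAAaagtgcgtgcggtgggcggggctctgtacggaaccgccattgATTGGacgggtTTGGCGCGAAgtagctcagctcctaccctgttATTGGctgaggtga

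The deposited values, CPM of a normalised library size, gave back 5045361 to 13009975 reads per library. The gene ENSMUSG00000119584, which had no name in the annotation used, took 52.6, 60.3 and 46.8% of the reads in naphthalene 1 to 3 and 43.9% in osimertinib 2, and at most 0.0337% in each other library. Outside it these 4 libraries held 2018541 to 2965328 reads and the others 8418669 to 13006929. The median kept member therefore rested on 10, 7 and 5.5 reads in naphthalene 1 to 3 and 11.5 in osimertinib 2, against 28.5 to 101 elsewhere. In naphthalene 1 to 3 and osimertinib 2, respectively 3, 13, 12 and 5 kept members had 3 reads or fewer, and in the other libraries 0 did. Because this read share marked all naphthalene libraries and no control library, it cannot be told apart from naphthalene in that comparison. Osimertinib against naphthalene has nearly the same limit, since among the osimertinib libraries only osimertinib 2 carried this share. Lung markers were present in every library, with the summed value of Sftpc, Sftpb, Sftpa1, Ager, Scgb1a1, Pecam1, Foxj1 and Cldn5 between 16582 and 27731.

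In control lungs replication genes were among the most abundant members per length. The control mean per kilobase of transcript was highest for Tyms (5.88), Mcm6 (4.57), Mcm3 (4.33), Top2a (3.5), Mcm2 (3.31) and Mki67 (3.05). Cdk1 was at 0.618 on this scale. The lowest was the checkpoint kinase Ttk at 0.255. Summed over the 40 members the deposited value was 206, 224 and 251 in control 1 to 3, and 176, 182 and 179 in naphthalene 1 to 3. It was 149, 185, 435, 227 and 216 in osimertinib 1 to 5. Every naphthalene library lay below every control library, and osimertinib 3 stood alone at the top. The group means were 227 ± 22.6 (SD, n = 3) for control, 179 ± 2.71 (SD, n = 3) for naphthalene and 242 ± 112 (SD, n = 5) for osimertinib, or 194 ± 34.9 (SD, n = 4) without osimertinib 3.

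**Figure D1:**
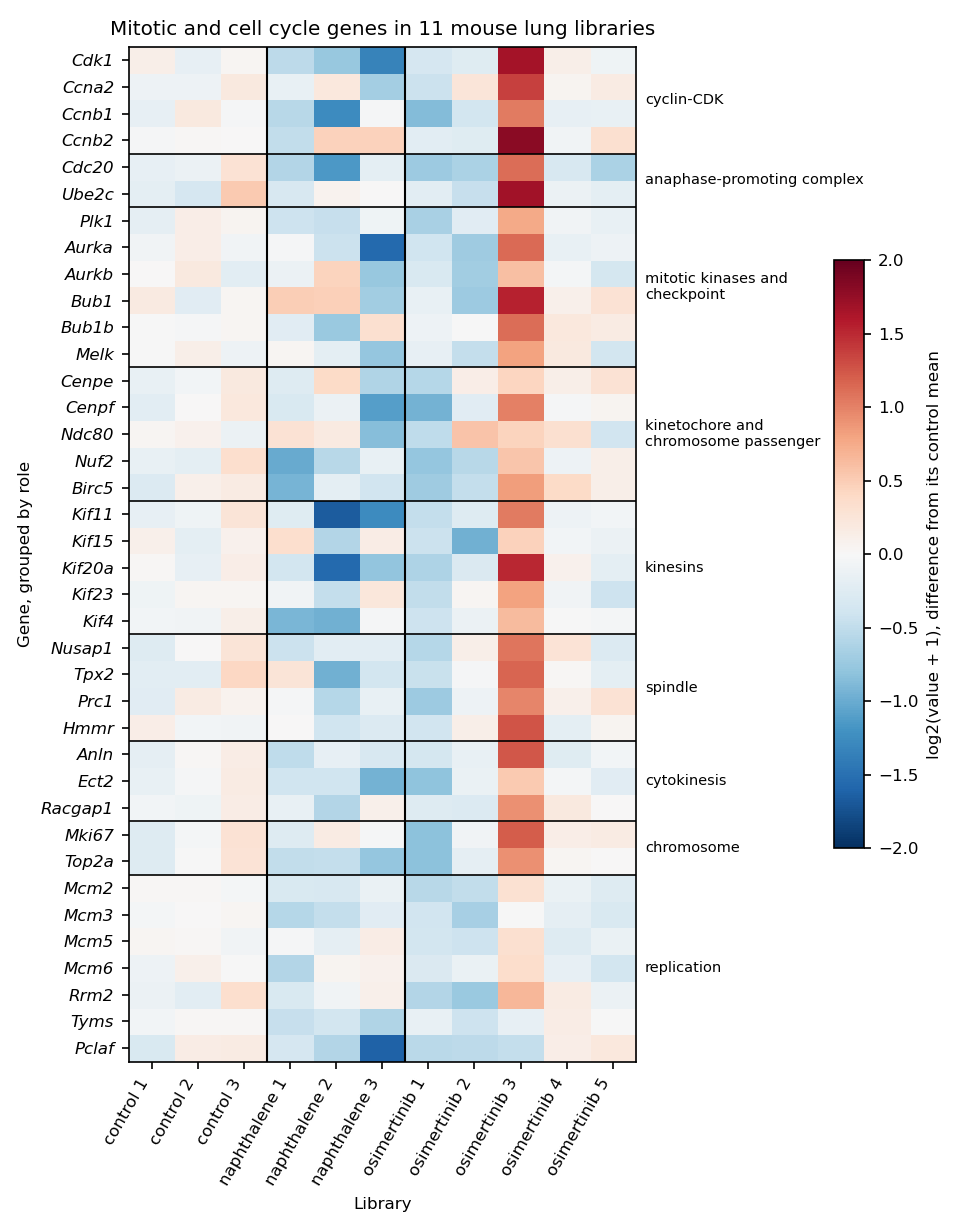
Each row is 1 of the 38 kept genes, ordered by role, and each column 1 library. Colour gives log2(value + 1) minus its mean over the control libraries, from blue (lower) to red (higher). The column of osimertinib 3 is red through nearly all G2 and M phase rows and paler in most replication rows, and the naphthalene columns hold most of the deepest blue cells.

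The cyclins and their kinase were low in most libraries and high in osimertinib 3. Cdk1, the kinase that drives mitosis, was at 3.01, 2.29 and 2.81 in control 1 to 3, 1.58, 1.19 and 0.459 in naphthalene 1 to 3, and 1.91, 2.12, 10.7, 2.99 and 2.47 in osimertinib 1 to 5. All naphthalene values lay under all control and all osimertinib values, but they rested on 5, 3 and 1 reads. Ccna2, the cyclin of S phase and early mitosis, was at 4.6, 4.58 and 5.88 in control, 4.42, 5.93 and 2.75 in naphthalene, and 3.44, 6.09, 14.5, 5.25 and 5.73 in osimertinib libraries. Its groups overlapped, and osimertinib 3 alone stood apart. Ccnb1 and Ccnb2, the mitotic B cyclins, reached 5.88 and 8.55 in osimertinib 3 and at most 2.82 in any other library.

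The anaphase-promoting complex was represented by its activator Cdc20 and its ubiquitin-conjugating enzyme Ube2c. Cdc20 was at 3.30, 3.47 and 4.88 in control 1 to 3, 2.21, 1.19 and 3.21 in naphthalene 1 to 3, and 1.91, 2.12, 9.44, 2.86 and 2.13 in osimertinib 1 to 5. Leaving osimertinib 3 aside, every treated library was below every control. Ube2c was at 1.48, 1.24 and 3.07 in control, 1.26, 1.98 and 1.84 in naphthalene, and 1.45, 1.06, 8.11, 1.60 and 1.47 in osimertinib libraries, so that only osimertinib 3 left the range of the controls upward.

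Among the mitotic kinases, the checkpoint kinase Bub1 was at 3.35, 2.29 and 2.94 in control 1 to 3, 4.42, 4.35 and 1.38 in naphthalene 1 to 3, and 2.44, 1.32, 10.2, 3.13 and 3.66 in osimertinib 1 to 5. Bub1b, which encodes the checkpoint protein BubR1, was at 5.28, 5.24 and 5.48, then 4.42, 2.77 and 6.88, then 4.89, 5.29, 12.7, 6.32 and 6.06 in the same order. Both had overlapping groups and 1 high library. The other kept kinases, the mitotic kinase Plk1, the aurora kinases Aurka and Aurkb, and Melk, reached 2.76 to 5.43 in osimertinib 3 and at most 2.37 elsewhere. Aurka had 0 reads in naphthalene 3, where 3 reads would give 1.38.

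At the kinetochore, the motor Cenpe was at 3.52, 3.80 and 4.75 in control 1 to 3, 3.16, 5.54 and 2.29 in naphthalene 1 to 3, and 2.37, 4.50, 5.70, 4.39 and 5.13 in osimertinib 1 to 5. Osimertinib 3 stood close to the other libraries for this gene. Cenpf, a large protein of the outer kinetochore, was at 5.11, 6.09 and 7.15, then 4.74, 5.54 and 2.29, then 2.67, 5.03, 13.3, 5.99 and 6.33. The microtubule-binding subunits Ndc80 and Nuf2 and the chromosome passenger protein Birc5 (survivin) lay between 0.316 and 3.47 in all libraries.

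The kinesin Kif11, which pushes spindle poles apart, was at 4.03, 4.32 and 5.75 in control 1 to 3, 3.79, 0.791 and 1.38 in naphthalene 1 to 3, and 3.05, 3.71, 10.6, 4.26 and 4.46 in osimertinib 1 to 5. The naphthalene values were 12, 2 and 3 reads and lay below all controls. Kif23, a motor of the central spindle in cytokinesis, was at 5.00, 5.57 and 5.55, then 5.05, 3.56 and 6.42, then 3.51, 5.56, 10.2, 5.05 and 3.80. The spindle proteins gave the same picture of 1 high library. Nusap1, which bundles microtubules, was at 2.61, 3.34 and 4.21, then 2.21, 2.77 and 2.75, then 1.91, 3.71, 8.11, 4.26 and 2.60. Prc1, which crosslinks the central spindle, was at 4.26, 5.89 and 5.48, then 5.05, 3.16 and 4.59, then 2.75, 4.76, 11.1, 5.59 and 6.53.

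Of the cytokinesis genes, Anln, an actin-binding scaffold of the contractile ring, was at 6.25, 7.33 and 8.02 in control 1 to 3, 4.74, 6.33 and 5.51 in naphthalene 1 to 3, and 5.42, 6.35, 18.3, 5.92 and 6.86 in osimertinib 1 to 5. Racgap1, the GTPase-activating partner of Kif23, was at 4.43, 4.32 and 5.28, then 4.10, 2.77 and 5.05, then 3.74, 3.71, 9.71, 5.45 and 4.66. In both genes osimertinib 3 had more than any other library. Mki67, the chromosome surface protein Ki-67 used as a marker of cycling cells, was at 25.3, 29.5 and 37.3, then 25.3, 34.0 and 29.8, then 16.7, 28.9, 71.5, 33.5 and 34.2. Top2a, the topoisomerase that untangles DNA before segregation, was at 14.9, 17.9 and 22.1, then 12.6, 12.7 and 10.1, then 9.85, 15.9, 35, 18.5 and 18.3. Mki67 did not separate naphthalene from control, whereas all Top2a values of naphthalene lay below all control values.

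For the replication genes osimertinib 3 lay closer to the other libraries. Mcm6, a helicase subunit, was at 18.4, 21.5 and 19.9 in control 1 to 3, 12.9, 20.6 and 21.1 in naphthalene 1 to 3, and 16.1, 18.0, 25.7, 17.7 and 15.1 in osimertinib 1 to 5. Tyms, the thymidylate synthase that makes the DNA nucleotide dTMP, was at 18.0, 18.9 and 18.9, then 13.3, 14.2 and 11.9, then 16.6, 13.8, 16.4, 20.6 and 18.6. Tyms did not peak in osimertinib 3. It was lower in every naphthalene library than in every control library.

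**Figure D2:**
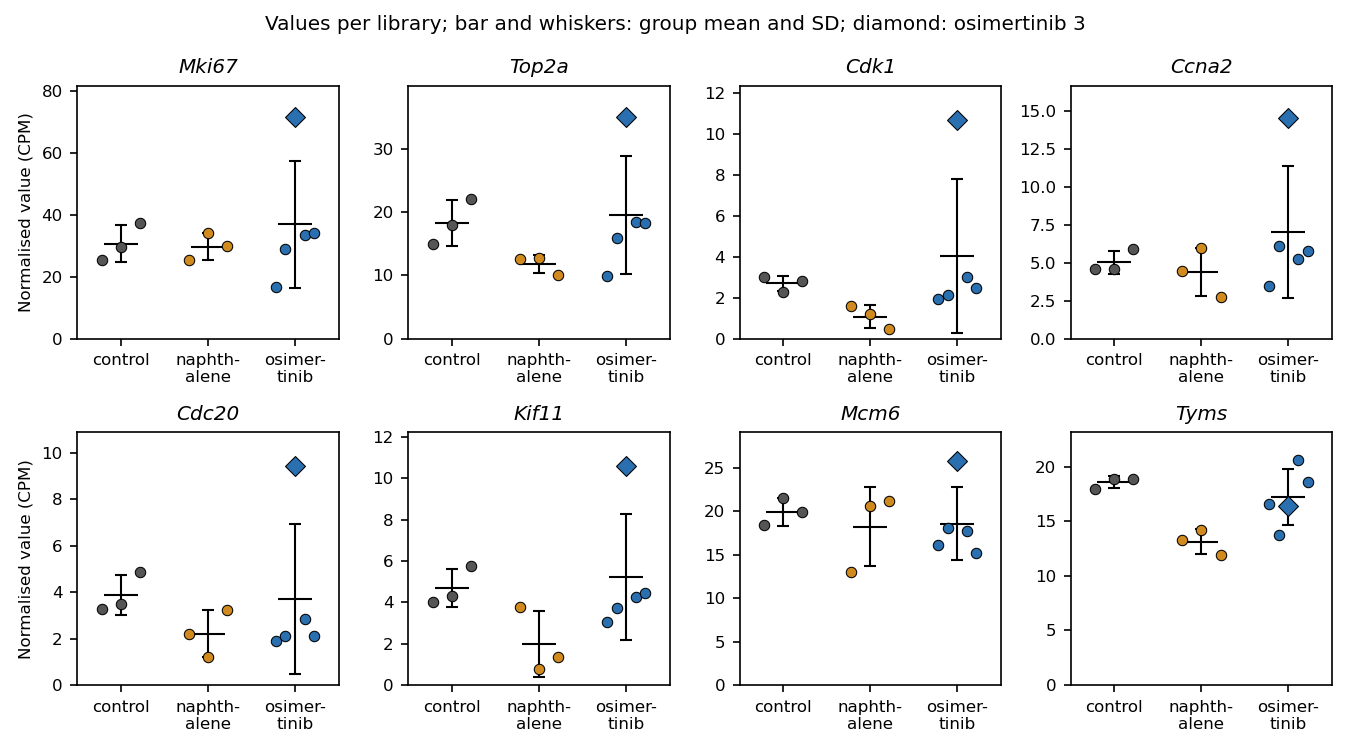
Each panel shows the deposited value (CPM of normalised library size) of 1 gene in every library, with a bar and whiskers for the group mean and SD (control n = 3, naphthalene n = 3, osimertinib n = 5). The diamond, osimertinib 3, lies above all other libraries in 7 panels and inside its group for Tyms.

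Naphthalene was compared with control to see what the injury alone left of cell cycle expression. No member passed. With limma on log2(value + 1) over all genes, 0 of 38 members had an adjusted p under 0.05, as did 0.0% of all genes, and edgeR and DESeq2 on the recovered reads also called 0 members. DESeq2 gave an adjusted p for only 1 member here. At an unadjusted p under 0.05 limma had 4 members (Kif11, Mcm3, Tyms and Pclaf), or 10.5% against 7.46% of all genes. The fit shares 1 spread over the groups, and with osimertinib 3 left out of it there were 10 members, or 26.3% against 11.6% of all genes. In 36 of 38 members the fitted difference was below 0, as in 62.0% of all genes, with a member median of −0.30 against −0.06 for all genes. The lowest was Kif11 at −1.05 (SE 0.40) with limma's adjusted p = 0.611, and the highest the B cyclin Ccnb2 at 0.14. The smallest adjusted p in limma was 0.503, for Tyms, at −0.47 (SE 0.15), from 18.6 ± 0.557 (SD, n = 3) in control to 13.1 ± 1.16 (SD, n = 3). Cdk1 was at −0.87 (SE 0.44, adjusted p = 0.715 in limma), and at adjusted p = 0.225 without osimertinib 3. Mki67 was at −0.04 (SE 0.37), and at 0.02 with median-ratio rescaling.

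Without reaching the threshold, 10 of 38 members (26.3%) had all naphthalene values below all control values, against 11.2% of all genes, and 0 had them above, against 4.94%. These 10 were Cdk1, Cdc20, Kif11, the kinesin Kif20a, the cytokinesis factor Ect2, Top2a, the helicase subunits Mcm2 and Mcm3, Tyms and the PCNA-associated factor Pclaf. Pclaf was at 2.61, 3.93 and 4.01 in control and 2.53, 1.98 and 0.459 in naphthalene libraries (8, 5 and 1 reads). Mcm3 was at 12.7, 13.2 and 13.5 against 8.52, 9.10 and 11. With equal library totals the median of all genes was −1.46 and 38 of 38 members passed as lower, as 95.6% of all genes passed in this setting (for osimertinib 37 members and 88.0% of all genes against naphthalene, and 0 members and 0.542% against control). Relative to the median gene, 20 members in naphthalene against control then lay above it and 18 below, where 5 and 33 did on the deposited scale. With equal totals outside the most abundant gene 9 lay above and 29 below, and with median-ratio rescaling 5 and 33. Among these scalings the even split was seen only with equal library totals. Without the added 1 a library's scaling factor would cancel relative to the median gene. The split therefore does not show an effect of that gene on the members, and its cause was not tested.

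Osimertinib after naphthalene was compared with naphthalene alone. Drug and read share of the most abundant gene can hardly be told apart here, because only osimertinib 2 shared the high share of the naphthalene libraries. Here too 0 of 38 members passed in limma (0.0% of all genes), edgeR or DESeq2. The fitted difference was above 0 in 34 members, and in 60.5% of all genes, with a median of 0.38 against 0.06 for all genes. Without osimertinib 3 it was above 0 in 27 and below 0 in 11, and above 0 in 58.0% of all genes, with a median of 0.14 against 0.04, and 0 members passed, with 0.0247% of all genes called. The largest was Cdk1 at 1.09 (SE 0.40), with 4.04 ± 3.74 (SD, n = 5) against 1.07 ± 0.568 (SD, n = 3) and an adjusted p of 0.365 in limma. Without osimertinib 3 Cdk1 was at 2.37 ± 0.474 (SD, n = 4), a difference of 0.73 and an adjusted p of 0.217 in limma. Cdk1 was the 1 member of 38 (2.63%) whose osimertinib values were all above the naphthalene values, against 3.82% of all genes, and it was so without osimertinib 3 too (against 6.45%). No member had them all below, against 2.12% of all genes, or 3.25% without osimertinib 3. Kif11 was at 1.08 (SE 0.36) with the smallest adjusted p in limma, 0.333, and at 0.82 without osimertinib 3. Tyms was at 0.36 and 0.37 with and without that library. Mki67 was at 0.16 (SE 0.33) and turned to −0.11 without osimertinib 3, and the lowest member was the kinesin Kif15 at −0.19, or −0.36 without it.

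Osimertinib after naphthalene was also compared with untreated control. Again 0 of 38 members passed in limma (0.00616% of all genes), edgeR or DESeq2, and the smallest adjusted p among members in limma was 0.999. In all libraries 19 members lay above 0 and 19 below, with a median of 0.00 against −0.01 for all genes, and 0 members had groups that did not overlap, against 2.91% of all genes higher and 3.43% lower. Without osimertinib 3 the direction was no longer split. Then 36 of 38 members lay below 0, where 56.9% of all genes did, with a median of −0.22 against −0.03, and still 0 passed (0.0123% of all genes), the smallest adjusted p in limma being 0.730 for Mcm3. Other libraries moved this split less: without osimertinib 1 it was 28 above and 10 below (median 0.18), and without control 1 it was 13 above and 25 below (median −0.06). In 6 members (15.8%) the osimertinib values other than those of osimertinib 3 were all below the control values, against 6.52% of all genes. They were Cdc20, Aurka, Mcm2, Mcm3, Mcm5 and Mcm6. Mcm2 was at 11.4, 11.3 and 10.8 in control, and at 7.25, 7.68, 10.1 and 9.13 in osimertinib 1, 2, 4 and 5, with 14.0 in osimertinib 3. Both comparisons with naphthalene share the naphthalene libraries, and both comparisons with osimertinib share the osimertinib libraries, so their differences are not independent.

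**Figure D3:**
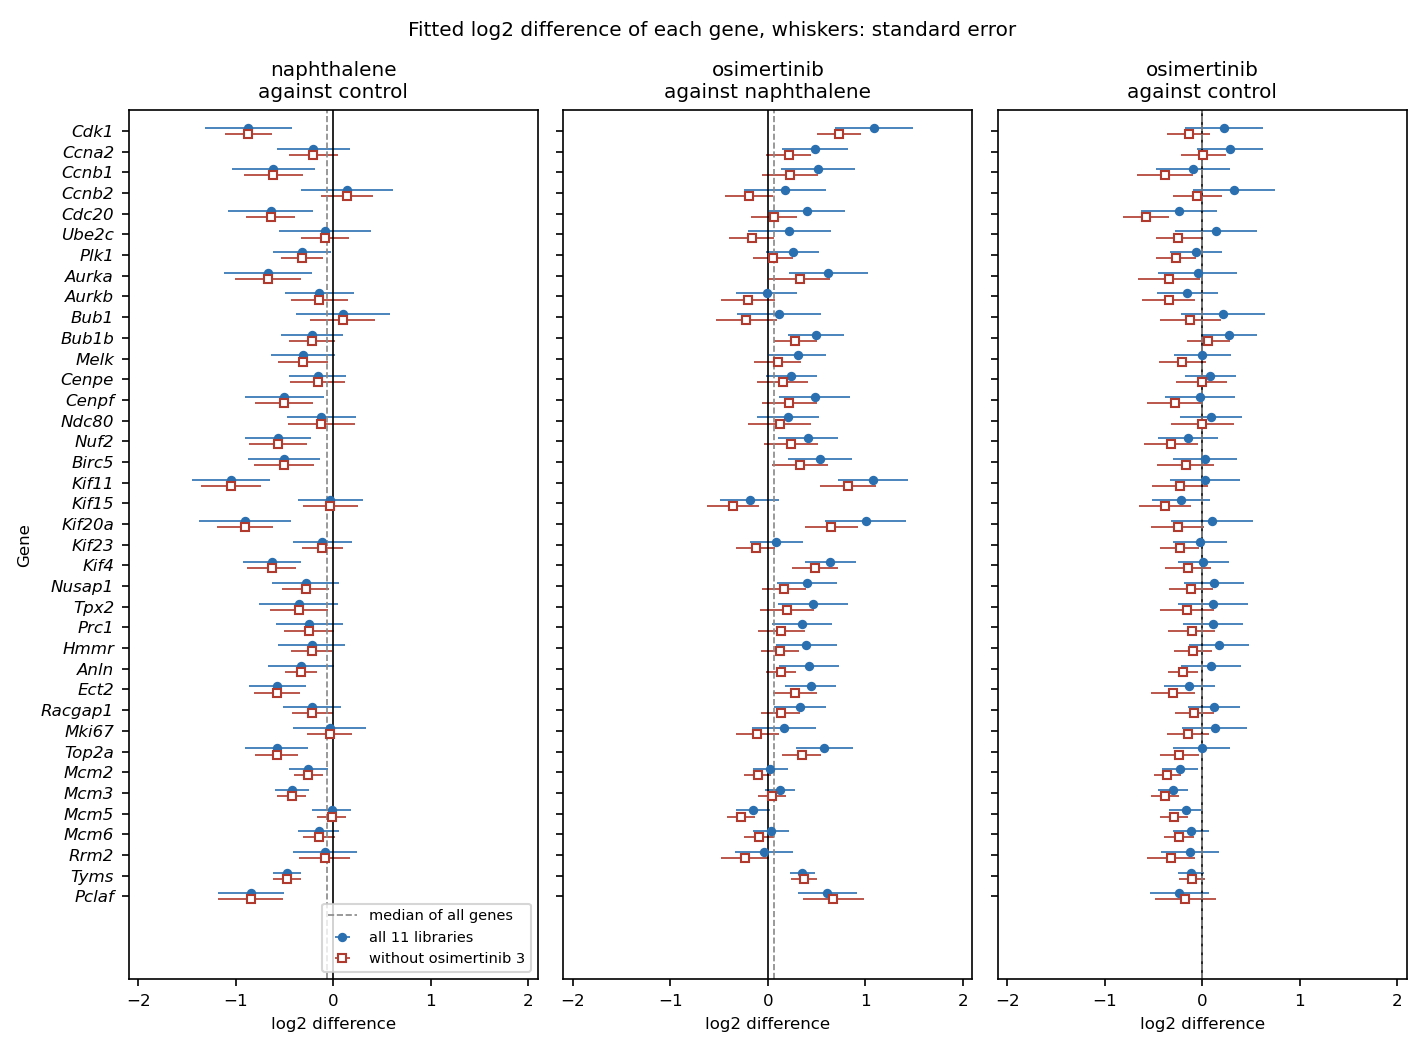
Fitted differences in log2(value + 1) for each kept gene in the 3 comparisons, with whiskers of 1 standard error. Filled circles use all 11 libraries and open squares leave out osimertinib 3, and the dashed line is the median of all genes. Naphthalene against control lies left of 0 for 36 of 38 genes, and in osimertinib against control the squares lie left of 0 for 36 of 38 while the circles divide evenly.

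The SD was largest in the osimertinib group for 33 of 38 members and in the naphthalene group for the other 5. Osimertinib 3 was the highest of all 11 libraries in 34 of 38 members (89.5%), against 30.6% of all genes, and the highest of the 5 osimertinib libraries in 35 (92.1%, against 39.6%). Its value was at least 2-fold the median of the other 4 osimertinib libraries in 27 members (71.1%), against 9.81% of all genes. The ratio had a median of 2.44 over the members and 1.02 over all genes, whose quartiles were 0.770 and 1.40 and whose 95th percentile was 2.59. By Dixon's criterion the library stood apart from its group in 15 members (39.5%, against 13.2% of all genes). No other osimertinib library stood apart in any member. Being 1 library, osimertinib 3 gives no test of a condition. The members were chosen with earlier results of these data known, so their shares beside all genes are a description only. The members rested on a median of 101 reads in osimertinib 3, more than in any other library.

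The ratio is given by role. Over the 31 kept G2 and M phase members it had a median of 2.64 and ran from 1.28 for Cenpe to 5.76 for Ccnb2, with 26 at 2-fold or more. Over the 7 replication members it had a median of 1.52, from 0.737 for Pclaf to 2.40 for the ribonucleotide reductase subunit Rrm2, and Rrm2 was the 1 at 2-fold or more. Within G2 and M phase the median was highest for the anaphase-promoting complex (5.00, with Ube2c at 5.56 and Cdc20 at 4.44) and the cyclins with Cdk1 (3.97, with Cdk1 at 4.67). It was 3.01 for the kinases, 2.73 for the spindle proteins, 2.41 for the kinetochore, 2.31 for cytokinesis, 2.29 for the kinesins and 2.17 for Mki67 and Top2a. Genes of 1 role share a library here, so these medians describe osimertinib 3 and are not tested. With equal library totals the member median was 1.62 and 11 members reached 2-fold, while the median of all genes was 0.607. Relative to the median gene the members stood 2.38 to 2.67 times higher under each of the 4 scalings tried, which were chosen after the data were seen. The factor given to osimertinib 3 cancels in this figure, so its narrow range does not test the scalings.

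**Figure D4:**
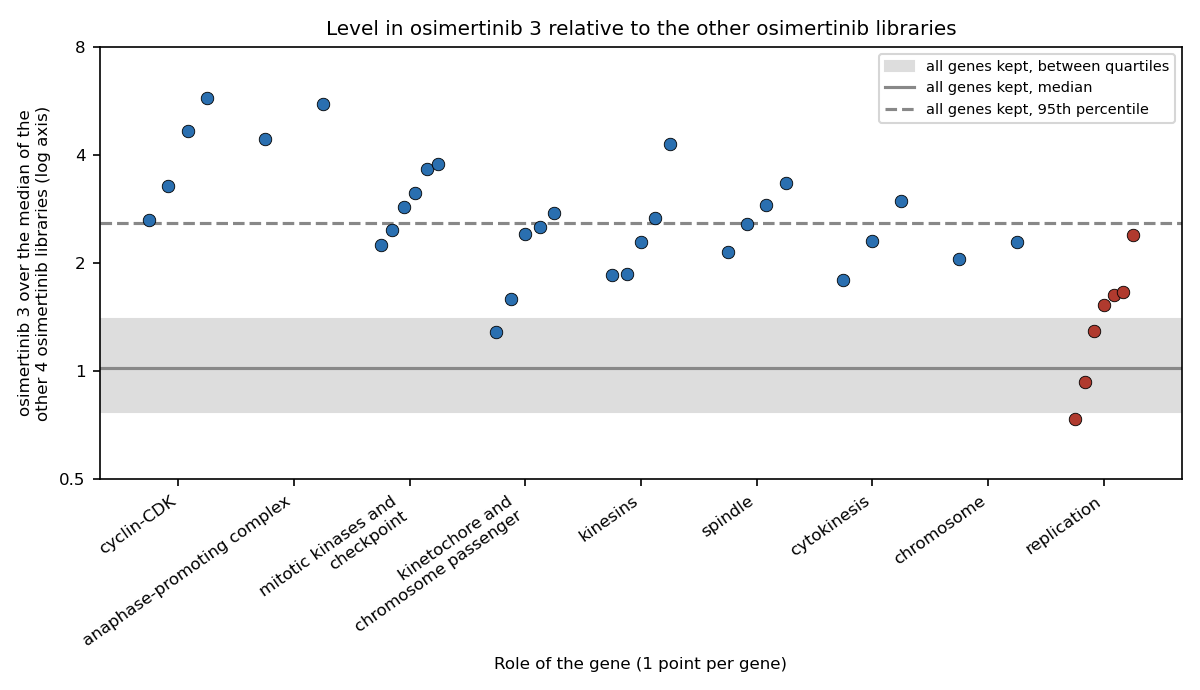
Each point is 1 kept gene, placed by role, with its value in osimertinib 3 over the median of the other 4 osimertinib libraries on a log axis. The grey band and line are the range between quartiles (0.770 to 1.40) and the median (1.02) of all genes and the dashed line their 95th percentile (2.59). Most G2 and M phase genes (blue) lie above 2, and 6 of 7 replication genes (red) below it.

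Osimertinib 1 was at the other end. It was the lowest of the 5 osimertinib libraries in 25 of 38 members (65.8%), against 13.5% of all genes, with Mki67 at 16.7 and Top2a at 9.85. Relative to the control mean, the median member was at 0.92, 0.98 and 1.09 in control 1 to 3, 0.76, 0.70 and 0.79 in naphthalene 1 to 3, and 0.65, 0.78, 2.15, 0.99 and 0.91 in osimertinib 1 to 5. The median of all genes stayed between 0.94 and 1.01 in every library on that scale. For the replication members alone the osimertinib libraries were at 0.75, 0.69, 1.25, 0.90 and 0.88, so that osimertinib 4 and 5 were the osimertinib libraries nearest to control.

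Other cell cycle genes, from lists chosen beside the members with earlier results of these data known, were read out of the same fits. In each comparison 0 genes of any of these lists passed in limma, and at most 0.00616% of all genes did with all 11 libraries. Of 44 further G2 and M phase genes 38 were kept. Osimertinib 3 was the highest of 11 libraries in 36 of them, against 30.6% of all genes. Their median ratio was 2.32, with 24 at 2-fold or more, against 9.81% of all genes. The largest ratio was that of the Cdk subunit Cks2 at 6.70. Securin (Pttg1), the anaphase inhibitor that Cdc20 helps to destroy, was at 40.1 in osimertinib 3 and 15 to 18.6 in the other osimertinib libraries. Of 27 further S phase genes 25 were kept, with a median ratio of 1.40 and 3 at 2-fold or more. Pcna, the sliding clamp of DNA polymerase, was at 54.4 in osimertinib 3 and at 25.4 to 34.6 in the others. The E2F, retinoblastoma and DREAM factors, listed with Myc (18 kept of 19), had a median of 1.26 with 2 at 2-fold or more. G1 cyclins and kinases (7 of 8) were at 1.16 with 1, Cdk4. The inhibitors of cyclin-dependent kinases, listed with Btg2 (7 of 8), were at 1.12 with 1, Cdkn2d. Apart from the G2 and M phase list, these counts at 2-fold or more were near the share over all genes, 9.81%. H2az1 and Lin54 were not analysed here.

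One of those inhibitors, the p53 target Cdkn1a, was at 23.8, 23.3 and 35.6 in control 1 to 3, 20.5, 24.1 and 25.7 in naphthalene 1 to 3, and 39.2, 37.1, 42.7, 35.8 and 57.8 in osimertinib 1 to 5. All osimertinib values were above all other values, though osimertinib 4 lay only just above control 3. Of all genes, 3.82% were likewise wholly higher in osimertinib than in naphthalene, and 2.91% than in control libraries. For Cdkn1a the difference was 0.81 from naphthalene, with an adjusted p of 0.188 in limma. It was 0.61 from control, with an adjusted p of 0.613 in limma. Osimertinib 3 did not stand apart.

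Markers of several cell types differed in osimertinib 3. The summed value of 10 alveolar macrophage genes, such as Marco and Siglecf, was 1087 there, against 527 to 734 in the other osimertinib libraries, 386 to 668 in naphthalene and 399 to 450 in control libraries. It was the highest of the 5 in 9 of these 10 genes. The 10 genes of monocyte-derived macrophages summed to 462, against 342 to 397 in the other osimertinib libraries, with 6 of them highest of the 5 in osimertinib 3. The 6 genes of alveolar type 2 cells summed to 27280, against 13727 to 18149, with 3 of them highest of the 5. Capillary endothelial genes summed to 1173, against 1458 to 1600. The erythroblast genes found summed to 210, against 84.6 to 150, while the defining factors Klf1 and Gata1 and the marker Ermap were under 1 in every library, and 2 of the 4 kept were highest of the 5. Genes of developing T cells summed to 5.79, against 6.86 to 10.8, with 4.75 to 10.7 in naphthalene and 10.7 to 29.0 in control libraries. The 2 kept genes of germinal centre B cells summed to 39.6, more than in any other library (29.6 to 32.6 in the other osimertinib, 31.3 to 33.2 in control and 34.0 to 35.2 in naphthalene libraries), with 1 of them highest of the 5. B cell genes summed to 56.3, within the 35.4 to 94.4 of the other osimertinib libraries (122 to 191 in control and 132 to 199 in naphthalene libraries). T cell genes summed to 28.8, against 18.3 to 27.1 in the other osimertinib libraries, but 32.3 to 32.9 in control and 26.2 to 35.8 in naphthalene libraries. Cardiac muscle genes summed to 26.4, against 53.7 to 72.6, and neutrophil precursor genes to 7.04, against 17.3 to 31.0, with none of either list highest of the 5. Both sums lay within the naphthalene libraries (16.1 to 55.0 and 6.42 to 53.8). Control libraries were at 33.1 to 64.2 and 27.5 to 35.6. Osimertinib 2 and naphthalene 3 had the next highest alveolar macrophage sums (734 and 668), with summed cell cycle values of 185 and 179, below every control library. The part of these cell types in the cell cycle values was not tested.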

How the data were processed

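Whole-lung total RNA of 11 libraries was used, 1 table for the series. The deposited signal is taken as CPM of a normalised library size, and the method of that normalisation was not checked. In it 100% of values were whole multiples of their library's smallest value within 0.01, so whole reads were recovered. Trimmomatic 0.38, Bowtie2, RSEM 1.3.0, edgeR and the build GRCm39 are named, without roles, in the submitters' processing notes. GENCODE M21 (GRCm38) named 23123 IDs and left 132 without a name; it also gave transcript lengths. Genes with a mean of at least 1 were tested on the log2(value + 1) scale (limma 3.58.1 in R 4.3.3), with a variance trend, 3 groups in 1 fit and Benjamini-Hochberg adjustment over all 16225 genes, threshold 0.05. Differences are the first group minus the second, understate the change of low genes, and are not recentred. The fits were also run on simulated counts. Only genes with a control mean of at least 5 were changed there, and no library like osimertinib 3 was included. The simulation therefore does not test the fits for most members. Alternatives were pseudocounts of 0.1 and 5, other filters and scalings, array weights, only the groups compared, a replicate block, leaving out each library, and edgeR 4.0.16 and DESeq2 1.42.0 on recovered reads. The members and gene lists were chosen with earlier results of these data known. Values per library are given for the 2 highest members of each role, for any past the threshold or with osimertinib (without osimertinib 3) and naphthalene values that do not overlap, and for Mki67, Top2a and Cdk1; others named were chosen after their values were seen.

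Libraries with the same number were checked for pairing by correlating their deviations from the group means across genes. Osimertinib and naphthalene libraries correlated at 0.122, 0.159 and 0.523 for numbers 1 to 3, each over 0.1, and were treated as paired in the blocked fit on this ground alone, although only osimertinib 3 correlated best with its own number (osimertinib 1 with naphthalene 2, and osimertinib 2 with naphthalene 1). The smallest chi-square per degree of freedom between libraries of 1 group was 3.44, and none was treated as a duplicate.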

Additional observations from a re-analysis of the deposited data

Results flagged for a closer look

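In the osimertinib group, osimertinib 3 was far above the other 4 libraries in several genes by Dixon's criterion, which chance meets in about 1 of 20 groups. In these data osimertinib 3 met it as the highest in 13.2% of all genes. The values in osimertinib 3 were 10.7 for Cdk1, 14.5 for Ccna2, 9.44 for Cdc20 and 8.11 for Ube2c. They were 10.2 for Bub1, 12.7 for Bub1b and 10.6 for Kif11, and 18.3 for Anln, the scaffold of the contractile ring. Of the replication genes described by library, Mcm6 was far above at 25.7 and Tyms was not. The summed value of the 40 members, at 435, was far above as well. Because all of these values come from 1 library, they count as 1 observation.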

How the results depend on the processing

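In naphthalene against control, the count of genes called over the whole table was 0 with limma, 11 with DESeq2, 5 with array weights, 21 with the 2 groups alone, 38 without osimertinib 2 and 3, 15509 with equal totals, and 0 to 12 with 1 library left out (12 without osimertinib 2, 1 without naphthalene 3). In osimertinib against naphthalene it was 0, and 21, 4, 1, 47 and 14282 in those settings, 7 with equal totals outside the most abundant gene, and 0 to 11 with 1 library left out (11 without osimertinib 2, 4 without osimertinib 3, and 1 without control 1, naphthalene 3 or osimertinib 1). In osimertinib against control it was 1, and 75 with DESeq2, 149 with array weights, 2 without osimertinib 2 and 3, 88 with equal totals, 0 with equal totals outside that gene, and 0 to 2 with 1 library left out (2 without osimertinib 2 or 3, 0 without any 1 control library, osimertinib 1 or osimertinib 5). A replicate block left 0 genes and 0 members called in each comparison, with member medians of −0.30, 0.35 and 0.02. It pairs control libraries by number too, which the correlations did not bear out, and takes nothing from osimertinib 4 and 5.

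The member count stayed at 0 in every setting but equal totals (38 and 37 called, medians −1.42 and 1.14), where the median gene lay at −1.46 and 1.11. With 1 library left out the member medians ran from −0.39 to −0.26 in naphthalene against control, 0.14 to 0.53 in osimertinib against naphthalene and −0.22 to 0.18 in osimertinib against control. The median osimertinib 3 ratio was 1.62 with equal totals, 1.49 outside the most abundant gene, 2.15 with a mean of at least 5, and 2.12 to 2.66 with 1 other osimertinib library left out.

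The sign turned for genes near 0. In osimertinib against control, Cdk1 was at −0.033 with array weights, −0.068 with equal totals and −0.11 without osimertinib 2 and 3, and at −0.14 to 0.36 with 1 library left out. Mki67 was at −0.18, −0.24 and −0.17 in those settings, at −0.079 with equal totals outside the most abundant gene, and at −0.15 to 0.36. Top2a was at 0.10 with DESeq2 and with edgeR, 0.012 with median-ratio rescaling, 0.0081 with a pseudocount of 5, and −0.24 to 0.20. Mki67 in naphthalene against control was at 0.012 with DESeq2, 0.016 with median-ratio rescaling, and −0.17 to 0.11. In osimertinib against naphthalene it was at −0.059 with array weights, −0.13 without osimertinib 2 and 3, and −0.11 to 0.40. The cause of these turns was not tested. In naphthalene and osimertinib 2 libraries few reads per member limit the precision.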
